A study of Homo sapiens with 6 samples.

Results

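The MHC class I antigen presentation genes were the heavy chain genes HLA-B, HLA-C, HLA-E and HLA-F, the light chain gene B2M, the peptide transporter genes TAP1 and TAP2, the tapasin gene TAPBP and the transactivator gene NLRC5, which are 9 of 19974 protein-coding genes on chromosomes 1 to 22 and X. Their open chromatin was taken as every ATAC-seq peak over the gene's interval or within 10 kb of it. By that rule they held 39 of 142865 peaks in the list called R1 and 38 of 134351 peaks in the list called R2. The cells were wild-type hTERT-RPE1, a human retinal pigment epithelial line immortalised with the catalytic subunit of telomerase, and no treatment is named in the labels. ATAC-seq marks accessible DNA by where the transposase Tn5 inserts sequencing adapters. There were 6 libraries, R1T1 to R1T3 and R2T1 to R2T3, and the authors deposited 1 merged peak list for each set. What separates R1 from R2 is not given in the labels. Because each list pools its libraries, no spread between replicates could be had, no test was run, and values of the lists are given side by side without comparing their strength.

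Class I molecules sit on the surface of nearly all nucleated cells and show peptides from inside the cell to CD8 T cells. Peptides cut by the proteasome enter the endoplasmic reticulum through the TAP transporter, and tapasin holds empty class I molecules at that transporter until a peptide fits. The genes are known to share promoter elements: a site for NF-κB, a site for interferon regulatory factors (IRF), and a module of W/S, X and Y boxes bound by the RFX complex, CREB or ATF proteins and NF-Y, on which NLRC5 acts. Retinal pigment epithelium, which separates the neural retina from its outer blood supply, is known to raise class I molecules when treated with interferon-γ.

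The promoters are shown because all of those present in the RefSeq promoter table lay inside peaks of both lists. Of the 9 genes, 7 matched an entry, and HLA-E and NLRC5 did not. In each stretch below, written 5′ to 3′ on the gene's strand from RefSeq's GRCh38.p14 table, capitals mark matches to the motifs named after it. The stretches are chr6:31357223-31357364 for HLA-B, chr6:31272136-31272292 for HLA-C, chr6:29723270-29723389 for HLA-F, chr15:44711365-44711480 for B2M, chr6:32853759-32853846 for TAP1, chr6:32838762-32838809 for TAP2 and chr6:33314079-33314142 for TAPBP. HLA-F and B2M lie on the plus strand and the other 5 on the minus strand.
HLA-B: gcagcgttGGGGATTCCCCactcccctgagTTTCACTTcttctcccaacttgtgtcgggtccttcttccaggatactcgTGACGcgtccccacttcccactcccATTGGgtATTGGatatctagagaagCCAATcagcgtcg
HLA-C: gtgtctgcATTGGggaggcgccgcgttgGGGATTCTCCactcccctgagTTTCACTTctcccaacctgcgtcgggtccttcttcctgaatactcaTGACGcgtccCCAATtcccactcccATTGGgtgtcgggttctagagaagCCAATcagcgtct
HLA-F: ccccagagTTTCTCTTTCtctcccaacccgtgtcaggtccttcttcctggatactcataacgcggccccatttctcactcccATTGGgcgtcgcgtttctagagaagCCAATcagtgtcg
B2M: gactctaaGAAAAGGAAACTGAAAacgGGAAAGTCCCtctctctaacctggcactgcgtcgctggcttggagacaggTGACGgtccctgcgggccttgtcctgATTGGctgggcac
TAP1: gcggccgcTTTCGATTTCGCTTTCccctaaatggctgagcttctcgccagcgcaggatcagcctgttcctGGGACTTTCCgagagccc
TAP2: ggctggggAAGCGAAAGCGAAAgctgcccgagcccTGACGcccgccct
TAPBP: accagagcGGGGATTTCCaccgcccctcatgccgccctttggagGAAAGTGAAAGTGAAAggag

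Every stretch held the IRF core AANNGAAA on one strand or the other, where N is any base. It was found in 7 of 7 members' promoters (250 bases before to 50 after the start), beside 22.8% of all 34961 promoters in the table. This and the other motifs were chosen after these promoters had been seen, so the shares are a description and not a test. A pair of GAAA runs separated by 2 bases, which overlaps the IRF core, was found in 5 of the 7, namely HLA-F, B2M, TAP1, TAP2 and TAPBP, beside 3.58% of all promoters. In B2M, TAP1 and TAPBP this pair occurred in overlapping copies. In TAP1 the copies were read on the opposite strand and spanned positions -134 to -119, counted from the gene's start. In TAPBP they spanned -20 to -5, next to the start itself. The interferon-type match of TAP2 lay at -58 to -49, between those of TAP1 and TAPBP in distance.

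The spacing of the X and Y boxes was shared by the classical heavy chains and their light chain. TGACG, the core of a CREB or ATF site, stood 20 bases before ATTGG, the reverse of the NF-Y motif CCAAT, in HLA-B and in HLA-C, and 21 bases before it in B2M. This pair, with 15 to 25 bases between, was found in 3 of the 7 members and in 0.435% of all promoters. HLA-F has ATTGG at -82 to -78 in the corresponding stretch, but TGACG was not among the letters of its promoter. CCAAT on either strand was found in 5 of 7 members beside 34.6% of all promoters, and TGACG in 4 of 7 beside 24.5%. The CCAAT match of TAP1, at -249 to -245, lies outside the printed stretch.

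The NF-κB consensus was found in HLA-B, HLA-C, B2M, TAP1 and TAPBP, 5 of 7, beside 11.3% of all promoters. In HLA-B and HLA-C it lay shortly before the IRF core, with the first letters at -177 and -172. In TAP1 it lay at -72 to -63, closer to the start than the IRF matches, and a second match at 23 to 32 is not printed. Over the 22132 protein-coding promoters the shares were 19.3% for the IRF core, 3.17% for the GAAA pair and 0.533% for the pair of TGACG and ATTGG. They were 34.6% for CCAAT, 27.9% for TGACG and 12.7% for the NF-κB consensus. A match describes letters in a window and is not a measured binding site. The upstream 250 bases of HLA-B and HLA-C were 89.0% identical, HLA-B and HLA-F 79.8% and HLA-C and HLA-F 78.2%, whereas the other pairs of members had 41.6% to 49.2% identity. The HLA genes are highly similar and variable, so reads may be split between them and the cells' alleles may differ from the printed sequence. The part of that in the peak values was not tested.

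**Figure D1:**
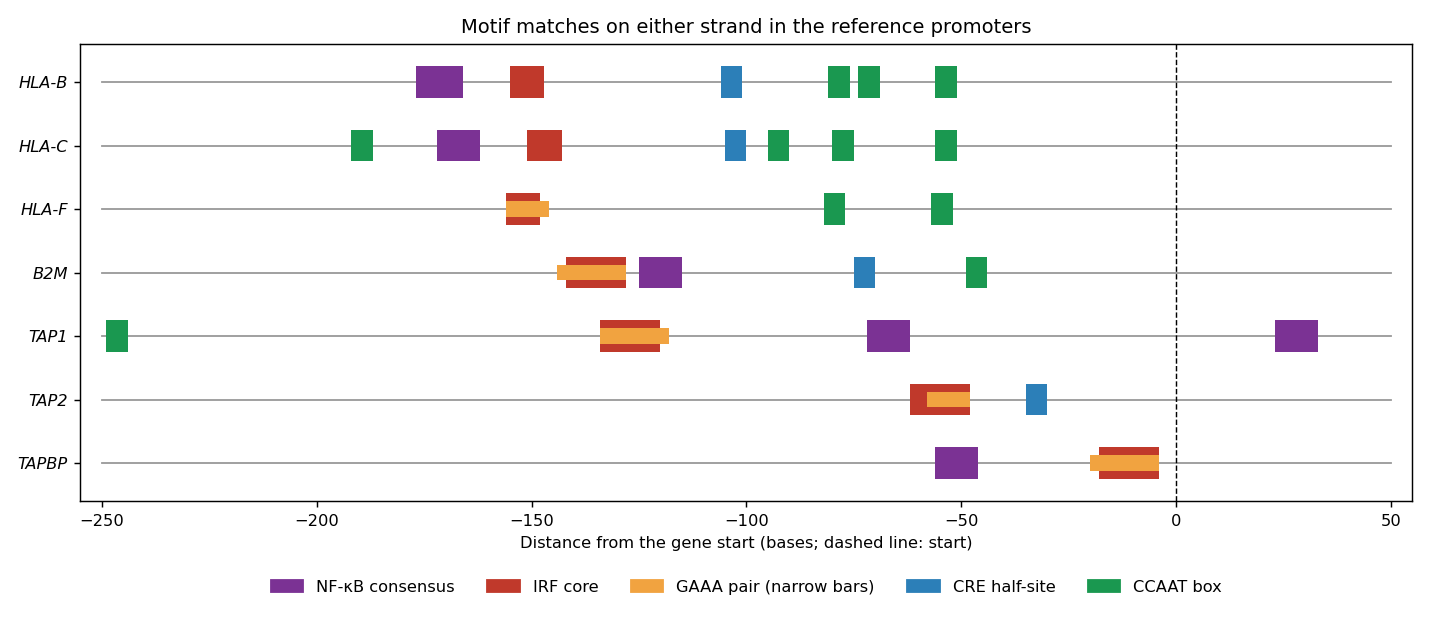
Motif matches in the promoters of the 7 members with an entry, by position in bases from the gene's start, with 1 line per gene and 1 colour per motif. TGACG (blue) and ATTGG (green, the reverse complement of CCAAT) stand at a like distance in HLA-B, HLA-C and B2M. The paired GAAA runs lie nearest the start in TAPBP and TAP2.

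All 7 members with a start in the promoter table had a peak within 1000 bp of it in both lists. The same held for 11738 of 15812 protein-coding genes, or 74.2%. Peaks of both lists covered the whole 300-base promoter of all 7, beside 59.4% of protein-coding genes. For HLA-E and NLRC5 the ends of the interval stood in for the start, and by this looser measure 9 of 9 members had a region in both lists beside 73.9%. With about 3 in 4 genes open at their start, the presence of a start peak sets these genes little apart. What differed among them was the form of the peak.

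Peak strength is given in 3 ways. The fold is the authors' deposited enrichment over local background. The pileup is the count over the summit, recovered from the fold and the p-value. It is called fragments here, although the sources do not state whether fragments, reads or insertion sites were counted. The background is the number expected there. Over all peaks the median pileup was 72 in each list. Over all gene starts with a peak in both lists, the median fold was 7.52 in R1 and 7.60 in R2, with median pileups of 306 and 319 and widths of 1413 and 1486 bp. A low pileup from fewer open cells and one from less accessible DNA in each cell cannot be told apart.

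HLA-B and HLA-C, the classical heavy chains, bind the peptides that T cells read. The HLA-B start peak had a fold of 8.86 (R1) and 9.32 (R2), with pileups of 351 (exact Poisson 95% interval 315.2 to 389.7, counting error only) and 355 (319.0 to 393.9). HLA-C had a fold of 6.68 (R1) and 7.81 (R2), with pileups of 356 and 413. HLA-C thus had no fewer fragments than HLA-B, over a higher background, 52.5 in R1 and 52.0 in R2 beside 38.8 and 37.2 for HLA-B. The HLA-C peak was also the wider, 1979 and 1878 bp beside 1437 and 1410 bp. Its summit lay 520 bp into the gene in R1 and 131 bp in R2, a shift of 389 bp between the lists that was larger than at 90.8% of gene starts, where the median was 46 bp. The HLA-B summits lay 98 and 72 bp into the gene.

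HLA-E and HLA-F are nonclassical heavy chains. HLA-E shows signal peptides of other class I chains to the CD94 and NKG2 receptors of natural killer cells. Its peak over the lower end of the interval, at chr6:30489123-30490591, had a fold of 9.19 (R1) and 9.87 (R2) and pileups of 420 and 441. HLA-F is a ligand of natural killer cell receptors. Its start peak had a fold of 9.27 (R1) and 9.23 (R2), near the values of HLA-B and HLA-E, but pileups of only 187 (161.2 to 215.8) and 180 (154.7 to 208.3). Those were the lowest pileups of the 7 start peaks in both lists, at percentiles 24.1 and 21.0 of all gene starts. The background there was also the lowest, 19.3 in R1 and 18.6 in R2, so fold and fragment number rank HLA-F differently.

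B2M encodes β2-microglobulin, the light chain that every class I heavy chain needs to fold. Its start peak had a fold of 8.26 (R1) and 7.30 (R2), with pileups of 399 (360.8 to 440.1) and 344 (308.6 to 382.3). The summit lay 9 bp into the gene in both lists, with no shift between them. The peak was 2140 bp wide in R1 and 2141 bp in R2, wider than at 89.7% and 87.1% of gene starts. The start of PATL2, a neighbouring gene, lies in the same region, so the signal cannot be given to B2M alone.

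TAP1 and TAP2 form the peptide transporter. TAP1 had the highest pileups of the 7 start peaks, 513 (469.6 to 559.4) in R1 and 511 (467.6 to 557.3) in R2, or percentiles 95.1 and 96.0. TAP2 came next with 499 (456.2 to 544.8) and 472 (430.4 to 516.6), and these intervals overlap those of TAP1. By fold the order was the other way round, 11.61 (R1) and 10.91 (R2) for TAP2 beside 8.34 and 8.59 for TAP1. TAP2 was the member start with the highest fold, at percentiles 92.6 and 88.8. The TAP1 peak was 2225 and 2157 bp wide and holds the start of PSMB9, an interferon-inducible proteasome subunit. Its summits lay at -153 bp (R1) and -267 bp (R2) from the TAP1 start, on the side of PSMB9.

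TAPBP encodes tapasin, the chaperone that joins class I molecules to the transporter. Its start peak had the lowest fold of the 7, 3.97 (R1) and 3.57 (R2), and only 9.7% and 6.7% of gene starts had a lower one. Its pileups were 339 (303.9 to 377.1) and 296 (263.2 to 331.7), within the range of the other members. The local background was 84.6 in R1 and 82.3 in R2, higher than at 96.6% and 96.0% of gene starts, and the peak was the widest of the 7, 2381 and 2330 bp. The low fold of TAPBP thus stood beside a high background, with fragments near the median of all gene starts.

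NLRC5, a member of the NOD-like receptor family, enters the nucleus and drives the promoters of class I genes. The region over the lower end of its interval, at chr16:56988325-56990097, had a fold of 7.53 (R1) and 8.22 (R2) and pileups of 326 and 359. A region 498 bp above the upper end in R1 and 515 bp in R2 had a fold of 9.62 and 10.63 but pileups of 182 and 195. NLRC5 has no entry in the promoter table used here, so neither pair of values was assigned to its start.

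**Figure D2:**
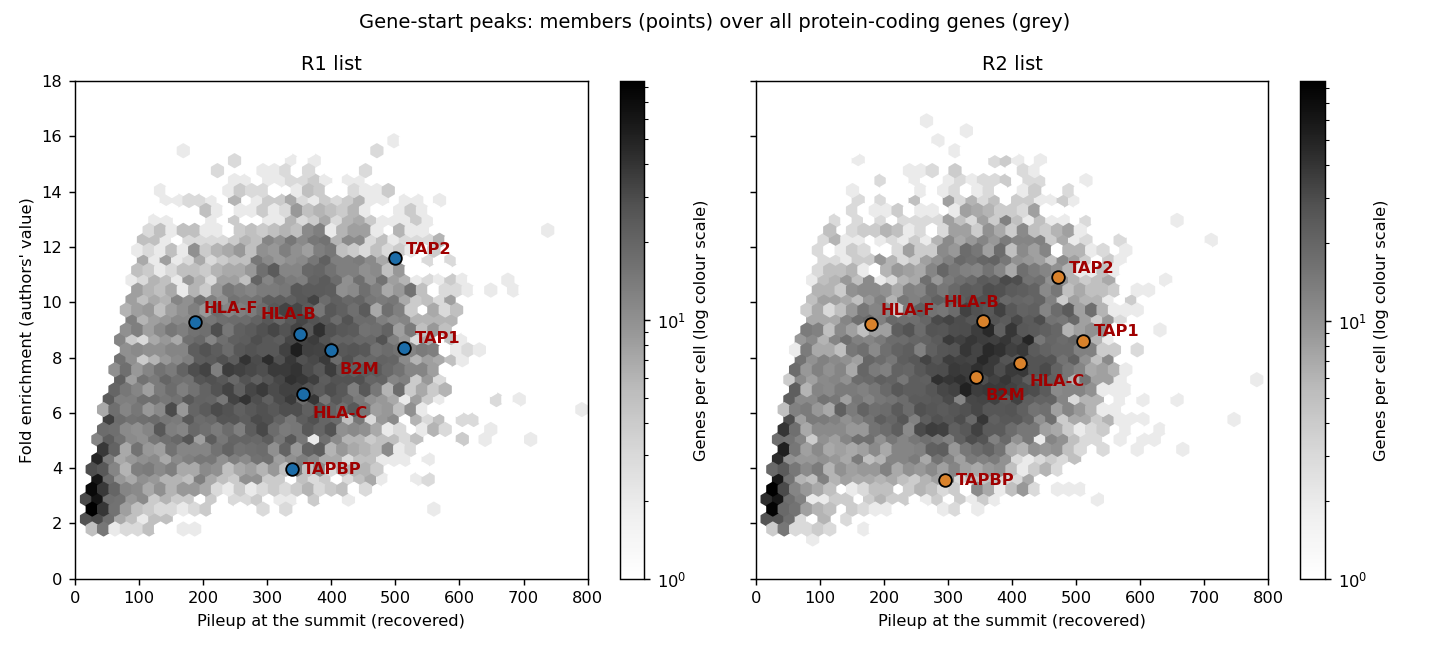
Pileup at the summit (x axis, fragments) against fold enrichment (y axis, authors' value) for gene-start peaks, with the 7 members as points over all protein-coding genes in grey, in R1 and R2. HLA-F lies left, TAP1 and TAP2 right and TAPBP low in both panels; the pileup axis ends at 800, beyond which 6 genes in R1 and 2 in R2 are not drawn.

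Beyond the starts, the windows of the 9 genes differed in how many regions they held. In all, 37 regions were present in both lists, of which 2 lie in the windows of both TAP1 and TAP2, and 2 more were in 1 list only. The median member window held 3 regions present in both lists, beside 4 over all 19974 genes. Most members are short, and under most of the alternatives tried the median of members equalled that of all genes. Per 10 kb of window the medians were 1.05 for members and 0.71 for all genes. HLA-E, with 5 regions, had 2.03 per 10 kb, more than 97.9% of genes. TAPBP, with 6 regions, had 1.74 per 10 kb, more than 95.1%. HLA-C stood at the other end with its start region alone, 0.43 per 10 kb at percentile 30.1.

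Of the members' 39 R1 peaks, 38 overlapped an R2 peak, a share of 97.4% (exact binomial 95% interval 86.5% to 99.9%), beside 87.3% of all R1 peaks. Of their 38 R2 peaks, 37 overlapped an R1 peak, also 97.4% (86.2% to 99.9%), beside 91.8% of all R2 peaks. Both intervals include the share over all peaks of their list. They treat neighbouring peaks as independent, so this is a description and not a test. The median fold was 6.79 over the members' R1 peaks and 6.17 over their R2 peaks, beside 5.04 and 5.12 over all peaks. Median pileups were 211 and 198.5 for members, beside 78 in both lists over peaks within 10 kb of any protein-coding gene. Starts are strong in general and make up a large part of this short list, and their share in the difference was not tested.

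**Figure D3:**
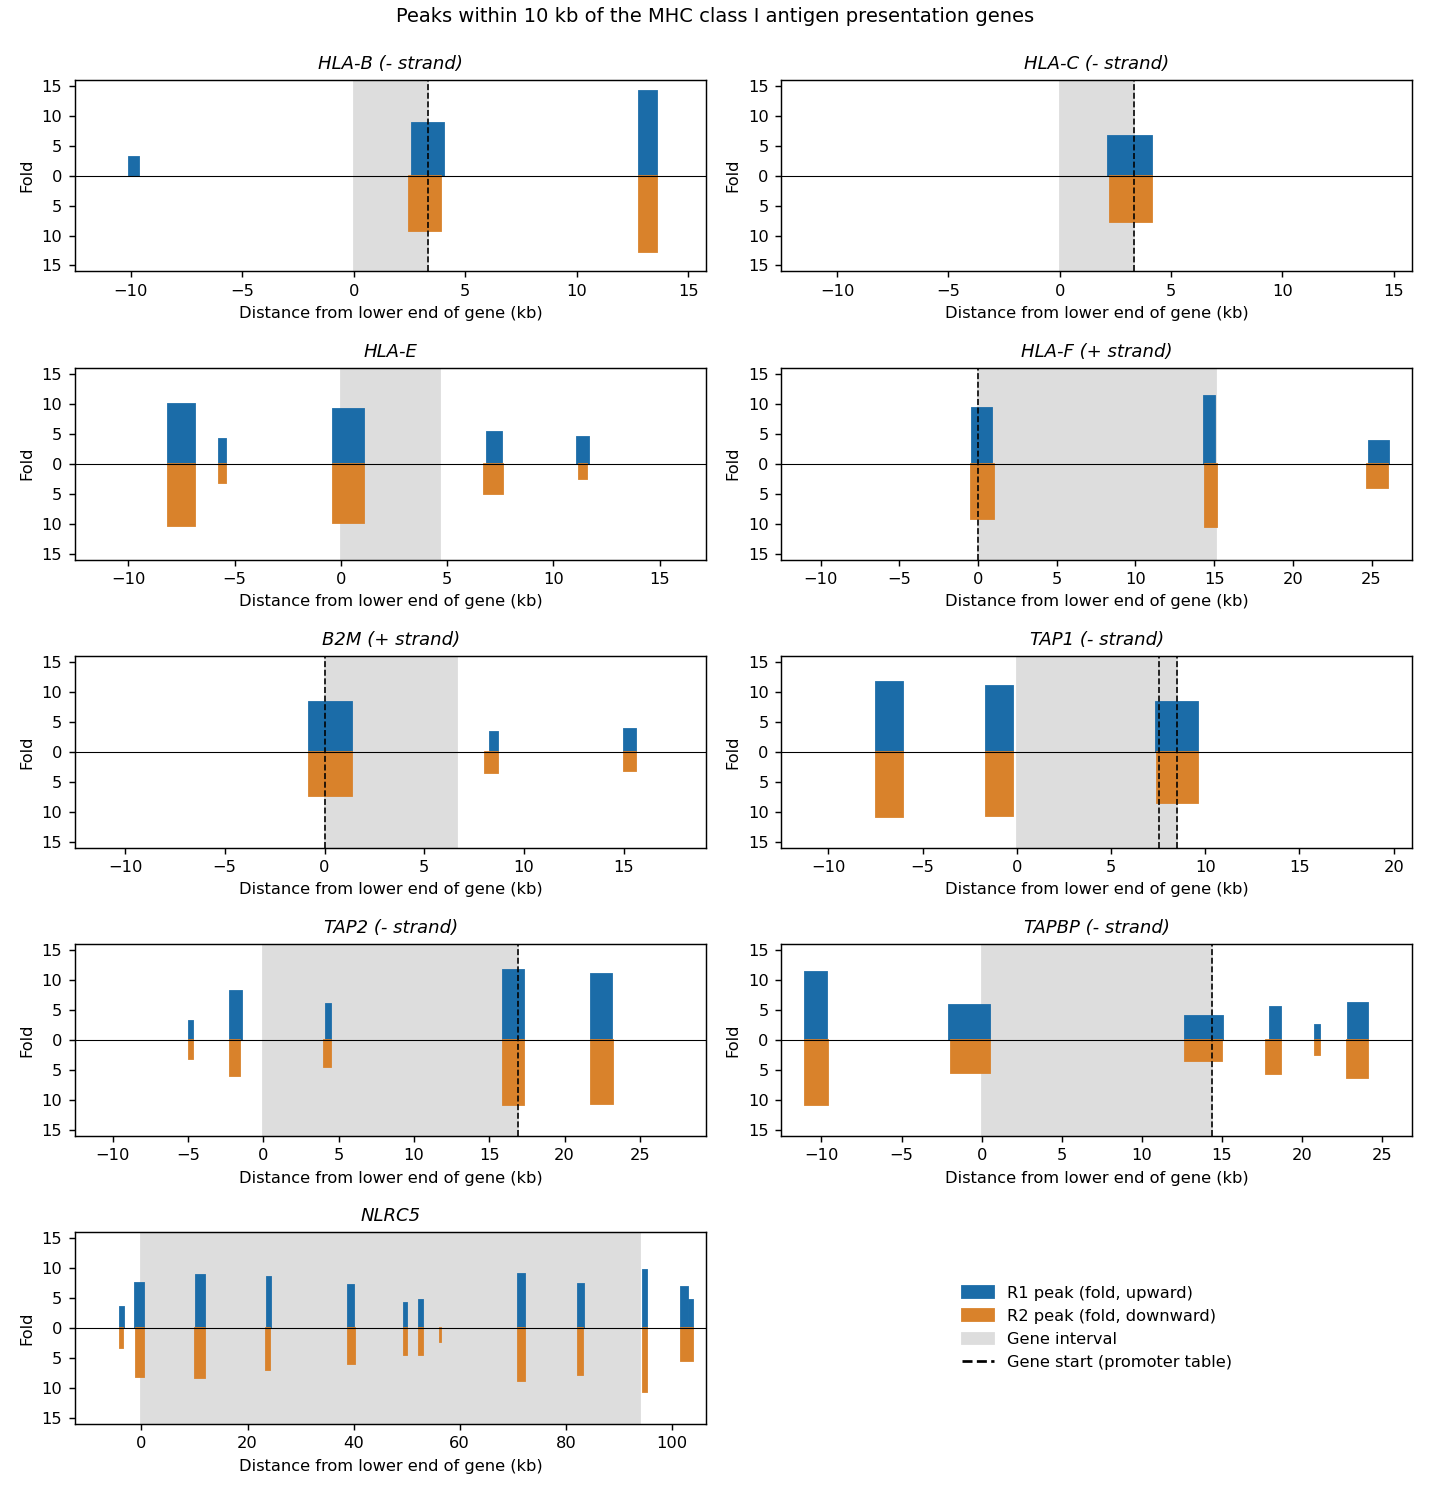
Peaks within 10 kb of each of the 9 genes, as bars over their true width at a distance in kb from the lower end of the gene, with fold upward for R1 and downward for R2, the gene interval in grey and table starts dashed. NLRC5 carries 11 regions in both lists, TAPBP 6, HLA-E and TAP2 5 each and HLA-C 1, and the tallest bar stands above the upper end of HLA-B.

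The highest fold among all the members' peaks was not at a gene start. It belonged to a region at chr6:31366642-31367483, on the upstream side of HLA-B, 9468 bp from its interval in R1 and 9463 bp in R2. Its fold was 14.15 in R1 and 12.71 in R2, above 99.3% and 98.2% of all peaks of those lists, with pileups of 233 (204.0 to 264.9) and 202 (175.1 to 231.9). The only gene in the RefSeq table that it overlaps is DHFRP2, a pseudogene. HLA-E had a region of the same kind at chr6:30481374-30482649, overlapping no gene in the table, with a fold of 9.94 (R1) and 10.40 (R2) and a pileup of 242 in each. Its fold was close to that of the peak at HLA-E itself, and its pileup was lower. The other regions around HLA-E were weaker, with folds of 4.07 and 3.18, 5.21 and 5.07, and 4.41 and 2.61 in R1 and R2.

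HLA-F had a region over its far end, at chr6:29737816-29738614, which overlaps both HLA-F and its antisense gene HLA-F-AS1. The fold was 11.29 in R1 and 10.58 in R2, higher than at the HLA-F start, with a pileup of 104 in each list. The start of HLA-F-AS1 had a fold of 3.83 and 4.03 but pileups of 230 and 244, more fragments than at the HLA-F start. ATAC-seq carries no strand, so the region over both genes cannot be given to either. Both further regions near B2M had low folds. One had folds of 3.25 (R1) and 3.53 (R2) with pileups of 28 and 30, and the other 3.85 and 3.13 with pileups of 211 and 166.

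TAP1 and TAP2 share a stretch of chromosome 6 with the immunoproteasome genes PSMB8 and PSMB9. The region at chr6:32843568-32845015, between both transporter genes, holds the starts of PSMB8 and of its antisense gene. It had a fold of 10.98 (R1) and 10.79 (R2) and pileups of 434 and 417, close to those of TAP2. The start of HLA-DOB, a class II gene of B cells and thymus, had a fold of 3.15 and 3.20 with pileups of 31 and 28. That is the weakest gene start in these windows by fragments. A region inside TAP2 had folds of 6.05 and 4.55.

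Of the 6 regions around TAPBP, 3 held starts of other genes. PFDN6 and WDR46 share one with a fold of 11.28 (R1) and 10.83 (R2), RGL2 one over the lower end of TAPBP with 5.86 and 5.58, and ZBTB22 one with 5.43 and 5.63. The ZBTB22 start had the most fragments of any region in the 9 windows, 544 and 541. A region over DAXX had the lowest fold of the 6, 2.49 and 2.61, yet pileups of 249 and 250. Low folds beside high fragment numbers thus occurred at several regions of this stretch, TAPBP among them.

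NLRC5 is the longest member, 93964 bp, and 7 regions in both lists lay inside it apart from the one at its lower end. Their folds ran between 4.15 and 8.93 in R1 and between 4.45 and 8.85 in R2. The strongest by fold was at chr16:57060449-57061908, with a pileup of 240 (R1) and 217 (R2), and the next was at chr16:56999722-57001481, with folds of 8.87 and 8.41. By density NLRC5 was ordinary, 0.97 regions per 10 kb at percentile 67.2, so its count of regions was high while their density was not.

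Grouped by kind, the 7 start regions of members had a median pileup of 356 (R1) and 355 (R2), and the 7 starts of other genes 434 and 413. The 9 further regions over members' intervals had a median fold of 7.27 (R1) and 6.94 (R2), not far from the 8.34 and 8.59 of the members' starts, but a median pileup of 104 in each list. The 12 further regions outside had a median fold of 4.81 and 4.30 and pileups of 163.5 and 155. Regions in these last classes hold no start in the promoter table, which is not complete.

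**Figure D4:**
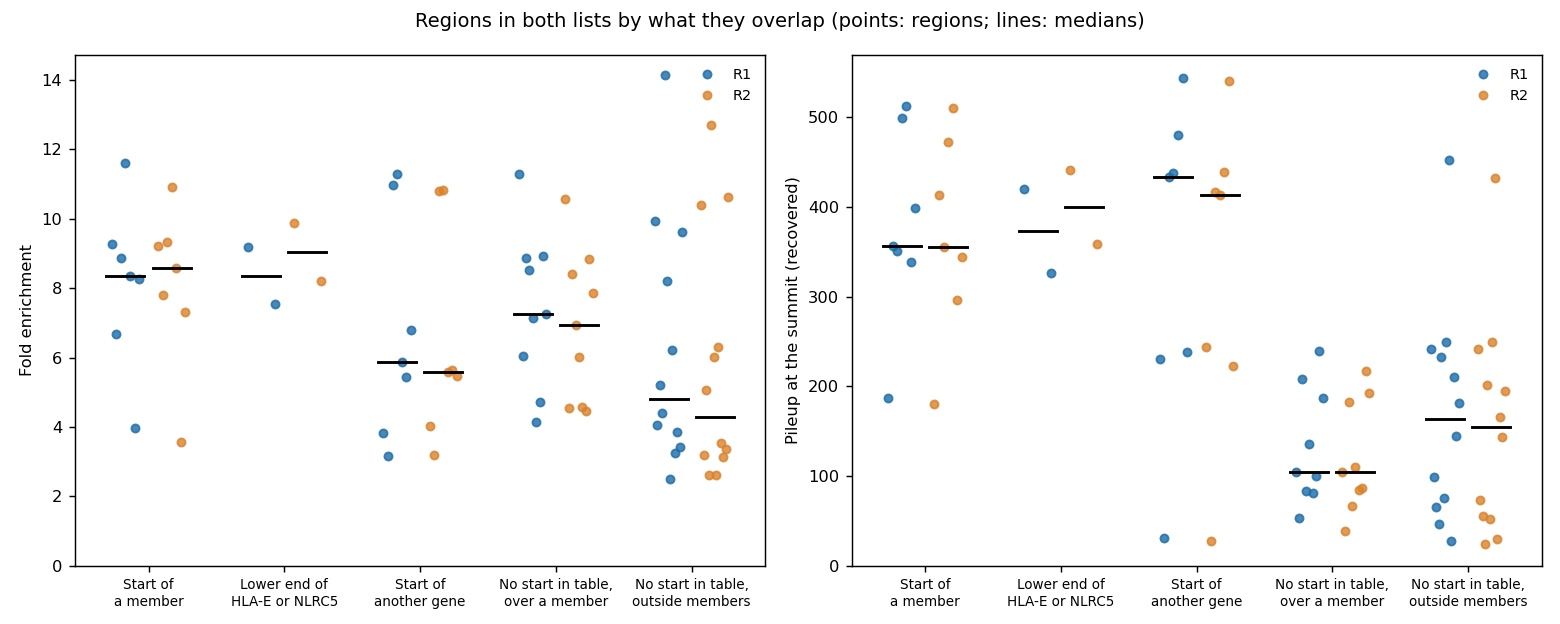
Fold (authors' value) and pileup (fragments) of the 37 regions by kind, 1 point per region and list, with medians marked. Regions inside members without a start reach folds like those of start regions at lower pileups, medians of 104 in each list beside 356 in R1 and 355 in R2 at members' starts.

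The rest of the pathway was open at its starts as well. Of 10 other genes of antigen processing and peptide loading with a start in the table, 10 had a region in both lists, beside the 74.2% over all genes, with a median fold of 7.49 (R1) and 7.23 (R2). PSMB8 led with the values given above, followed by ERAP1, a peptidase that trims peptides in the endoplasmic reticulum, with 9.55 and 8.41, and by PSMB9, whose peak is that of TAP1. Of 10 transcription factors of class I promoters, 10 had a start region in both lists, again beside 74.2% of all genes, led by NFYC, a subunit of NF-Y, with 10.64 and 9.74, RFX5, the DNA-binding part of the RFX complex, with 9.75 and 10.24, and RELA, a subunit of NF-κB, with 9.26 and 8.78. Of 8 genes of interferon receptors and signalling, 8 had one, beside the same 74.2%, led by IFNGR1, a chain of the interferon-γ receptor, with 9.42 and 10.31. IRF9, a transcription factor of the type I interferon response, had 8.95 and 9.97, and the kinase TYK2 had 8.99 and 8.57.

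Of 12 class I-like genes, 9 had a start region in both lists, a share near the 74.2% over all genes. The leading start regions were those of HFE, which regulates iron uptake, with 10.54 in R1 and 10.93 in R2, MR1, which presents vitamin B metabolites to MAIT cells, with 9.74 and 9.94, and PROCR, the endothelial protein C receptor, with 9.73 and 9.75. CD1D, which presents lipids, HLA-G, the heavy chain of the placenta, and AZGP1 had a start region in neither list. HLA-G differed in this from the 4 heavy chain genes above, each of which had a region at its start or, for HLA-E, at an end of its interval. Reads may be split between similar HLA genes, and the part of that in the absent HLA-G peak was not tested. Lists of 8 to 12 genes are described by their counts and no test was run.

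The labelled cell type was checked against markers. Of 8 markers of retinal pigment epithelium with a start in the table, 5 had a start region in both lists, beside 74.2% of all genes. Their folds were 8.44 (R1) and 8.58 (R2) at MERTK, a receptor for engulfing photoreceptor debris, 7.79 and 8.04 at the transcription factor MITF, and 5.99 and 6.34 at the keratin gene KRT8. The lowest were 4.01 and 4.81 at RLBP1, a retinoid carrier of the visual cycle, with pileups of 46 and 53, and 3.08 and 2.59 at the transcription factor OTX2. RPE65, TYR and TYRP1, of the visual cycle and of pigment synthesis, had one in neither list. Blood cells carry much class I. Of 6 markers of blood cells with a start in the table, 1 had a start region in both lists, beside the same 74.2%. It was CD14, with pileups of 69 and 66. PTPRC, the pan-leukocyte gene, ITGAM, CD79A, LCP2 and IKZF1 had one in neither list. The endothelial marker with a start in the table, TEK, had none either. By the looser measure of either end of the interval, 8 of 11 markers of retinal pigment epithelium had a region in both lists, beside 73.9% of all genes. By that measure 3 of 9 markers of blood cells had one, namely CD14, SPI1 and CD3E, and 0 of 4 markers of endothelium.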

How the data were processed

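ATAC-seq of 6 libraries, pooled by set, is represented by 1 merged peak list for R1 and 1 for R2. Per the submitters' processing notes the build is hg38. Not given in the sources used here are aligner, peak caller, settings and any shift for Tn5 insertion. The authors deposited, for each peak, a fold enrichment (a ratio), a −log10 p-value, a −log10 q-value, a summit offset and a score, which was not used.

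Peaks of chromosomes 1 to 22 and X were kept. Genes came from RefSeq's GRCh38.p14 gene table and starts from its promoter table. A peak belonged to a gene when it overlapped the interval or lay within 10 kb, and regions of both lists overlapped by at least 1 bp. A start region lay within 1000 bp of a start. Pileup and background were recovered by assuming that 1 was added to both pileup and background before their ratio was taken and that p is a Poisson probability. A whole pileup gave the deposited p-value within 0.001 (−log10 scale) for all 142865 R1 and 134351 R2 peaks. The relation is inferred and no source states it. Neither duplicate removal nor the unit counted is stated, so intervals cover counting error only. They would be too narrow if both ends of a fragment were counted.

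The members and lists were chosen with earlier results of these data known, and the motifs after the promoters had been seen. All members are named. Of each other list, the 3 genes with start regions in both lists and the best mean percentile of fold are named, and every gene with a region in neither list. The overlap, region and pileup steps were tested on simulated data. The simulated pileups followed the assumed relation, so they could not test the relation itself. Identity came from pairwise alignment in Biopython 1.88. Other tools were matplotlib 3.10.9, scipy 1.17.1, pandas 2.3.3 and numpy 2.4.6 under Python 3.11.15. Alternatives changed the window, the q-value threshold and the definition of sharing.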

Additional observations from a re-analysis of the deposited data

How the results depend on the processing

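The count of members with a start region in both lists, 7 of 7, was checked under 8 alternatives. A narrower distance from the start, both q-value thresholds and summits inside the window could have lowered it, and each gave 7 of 7. A wider distance and each list taken alone also gave 7 of 7, but by construction could not have given fewer. Taking either end of the interval for the start is a different count and gave 9 of 9. The other values moved with the window, the q-value threshold or the definition of sharing. Counting regions over the gene interval only left 19 regions, and 2 kb windows left 23. Under both the R1 share found in R2 was 100% and the median fold 8.26 in R1 and 7.84 in R2. Over the interval only, the median number of regions was 1 for members and 2 for all genes, and with 2 kb windows it was 2 for both. With 20 kb windows the median fold was 6.23 in R1 and the median number of regions 5 for members and for all genes. The medians were also equal, at 3, under both q-value thresholds, with summits inside the window and with summits at most 150 bp apart. With −log10 q of at least 5 the R2 share was 100% and the R2 median fold 6.63, and with at least 10 they were 100% and 7.12. With sharing defined as summits at most 150 bp apart, the shares were 79.5% in R1 and 81.6% in R2. The cause was not tested, beyond that narrower windows by construction hold fewer regions.

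Leaving out single libraries could not be done, because the lists are pooled. No paired analysis was possible because each set has 1 merged list and no values per library. At this depth the weakest of the members' peaks has a pileup of 24. Motif counts rest on 7 promoters of the reference haplotype.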

Other observations

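Regions in 1 list only were the weakest of their windows. A peak near HLA-B at chr6:31343794-31344228 was found in R1 only, with a fold of 3.14 and a pileup of 27. A peak inside NLRC5 at chr16:57045778-57046003 was found in R2 only, with a fold of 2.30 and a pileup of 33.

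The 10 kb limit lay close to a further peak at B2M, and the nearest outside peak of every other member lay at least 13344 bp away. The nearest peak beyond the limit lay 10313 bp from B2M in R1, with a fold of 7.14, and 10279 bp in R2, with a fold of 7.02, while the farthest B2M peak inside it had a fold of 3.85 (R1) and 3.13 (R2). The nearest peak beyond the limit of TAP1 lay 14072 bp away in R1 and 14039 bp in R2, with folds of 12.18 and 11.93. Around HLA-C the nearest peaks outside lay 14916 bp away in R1, with a fold of 2.58, and 21204 bp in R2, with a fold of 4.89.

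The CPNE2 start beyond the upper end of NLRC5 lay inside 1 peak in R2, with a fold of 5.48. In R1 the same region held 2 peaks, with folds of 6.79 and 4.67, and neither of them covered that start.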
